A study of Mus musculus with 6 samples.

Results

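Mouse brain fixed in formalin and kept in paraffin (FFPE) gave single nuclei that were sequenced in 96-well plates in separate batches, and the nuclei of batch 1 are set here against those of batch 2. The members are the 98 nuclei of the batch 1 table (28 on plate MB17 and 70 on plate MB18) and the 134 nuclei of the batch 2 table (67 on plate MB14 and 67 on plate MB16), 232 of the 7619 wells and nuclei that the series annotates. Both batches came from C57BL/6J mice aged 8 to 12 weeks, from 50 µm scrolls of tissue labelled cortex, with 1 nucleus per well, the left hemisphere in every row of the annotation, and SMART-Seq2 libraries. The labels give no animal, sex or treatment that separates the batches. Each batch is 1 deposited sample with its own run label, so batch, run and any difference in tissue block cannot be told apart, and plates are the units compared. Nothing says that the plates came from separate animals, so p-values measure at most the spread between plates.

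Formalin joins RNA to protein and breaks it, which leaves short and chemically altered fragments for sequencing. A nucleus mostly holds newly made, unspliced transcripts, and genes with long introns give much of them. Mature messages of ribosomal proteins and of the respiratory chain are mostly in the cytoplasm, and hemoglobin messages are made mainly, though not only, by developing red blood cells. SMART-Seq2 amplifies cDNA by PCR without molecular identifiers, so a count is a read and not a molecule, and counting intervals cover counting error only.

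Many wells held almost the same profile as another well, which bears on every result that follows. For each of 26796 pairs of nuclei, Pearson's r was taken over genes of log2(counts per 10000 + 1). In 97 pairs r was above 0.6, with a median of 0.921, while the other 26699 pairs had a median r of 0.157 and a 99th percentile of 0.325. These pairs joined 137 nuclei into 57 groups and left 152 distinct profiles. The groups took 58 nuclei of MB14 and 53 of MB16, against 10 of MB17 and 16 of MB18. Most pairs joined the plates of batch 2 to each other: 61 pairs lay between MB14 and MB16, of which 47 were in mirrored rows (row A of one plate with row H of the other, and so on) and 12 in the same row. On MB18 all 8 pairs lay in the same row of columns 5 and 8, with r from 0.974 to 0.998. A further 9 pairs joined MB17 of batch 1 to MB16 of batch 2, all in mirrored rows, and 8 groups with 18 nuclei spanned the batches. No pair shared its combination of index sequences. For pairs between plates this could not come out otherwise, since MB16 shares 0 combinations with MB14 and 0 with MB17. How the same profile came to be in several wells was not tested.

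**Figure D1:**
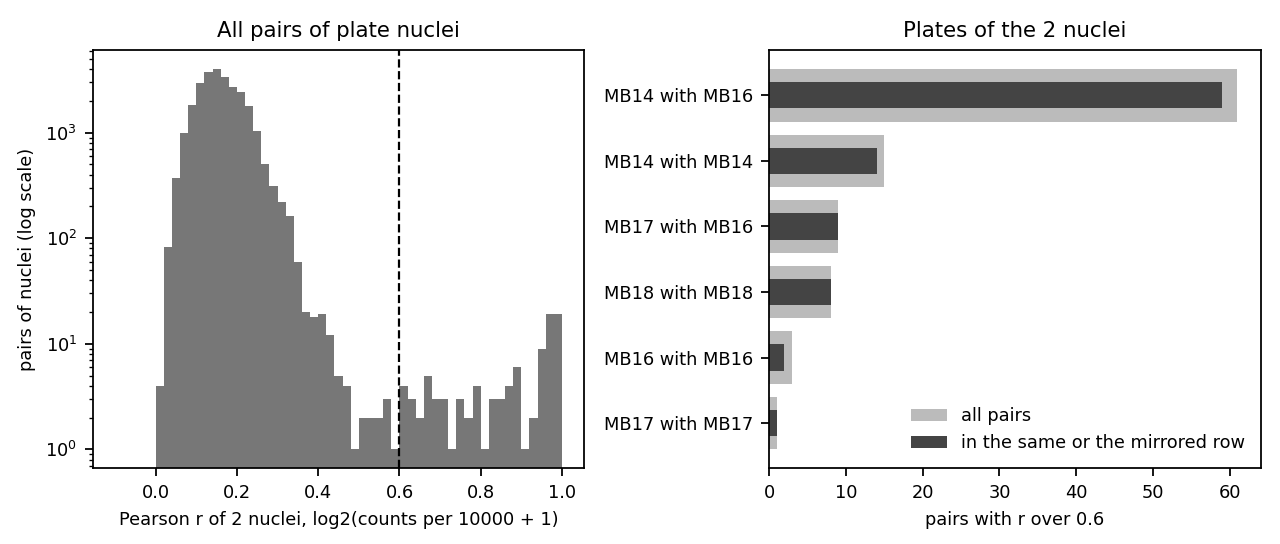
Left, histogram of Pearson's r for all 26796 pairs of nuclei, with the number of pairs on a log scale and a dashed line at r of 0.6. Right, number of pairs above that line by the plates of the 2 nuclei (grey bars), with those in the same or the mirrored row as dark bars. The 97 pairs to the right of the line lie far above the median pair, and 61 of them join MB14 to MB16. There is no gap at the line, and 148 pairs lie above r of 0.4.

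A non-redundant set was therefore used beside all nuclei. It kept the deepest nucleus of each group within a batch and left out groups that span batches, which left 19 nuclei of MB17, 62 of MB18, 39 of MB14 and 24 of MB16. Where shared profiles remain, MB14 and MB16 are not independent plates, and p-values over plates are then too small.

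Batch 1 was sequenced deeper, through MB18. The median mouse count per nucleus was 65894 on MB17, 215763 on MB18, 53456 on MB14 and 40301 on MB16, so that both plates of batch 1 lay above both of batch 2, and MB18 far above the rest. Each nucleus was thinned to 10000 counts, which left out 6, 2, 5 and 3 nuclei of MB17, MB18, MB14 and MB16. In 10000 counts the median nucleus showed 655 genes on MB17, 1029 on MB18, 1011 on MB14 and 979 on MB16. MB17 was low and the other 3 plates lay close together, and the mean of the plate medians was 153 genes lower in batch 1, within the pooled plate SD of 187. The exact permutation test over plates gave a 2-sided p of 1.00, and with 2 plates against 2 its smallest p is 0.333. Without MB17 the difference turned, with batch 1 higher by 33.5 genes. Counts on human genes, which a mouse nucleus should lack, had medians of 3.58% and 1.04% on the batch 1 plates and 5.63% and 5.51% on the batch 2 plates, and no nucleus in the tables has under 90% mouse counts. The human share moves with the batch, and its part in the results below was not tested.

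**Figure D2:**
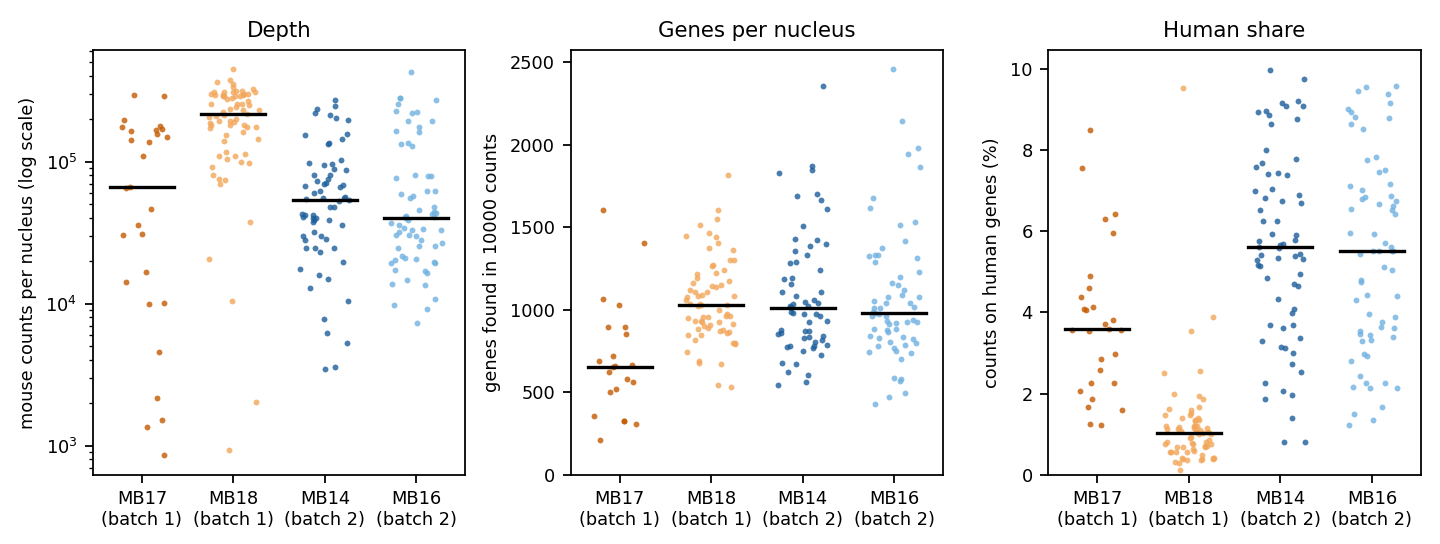
Mouse counts per nucleus (log scale), genes found after thinning to 10000 counts, and percent of counts on human genes, with 1 point per nucleus and a bar at the plate median. MB18 has the deepest nuclei, MB17 the fewest genes at equal depth, and both plates of batch 2 the largest human share.

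Cell type content was compared through 14 lists of marker genes, with a nucleus counted for a list when at least 2 of its markers had a count. Nuclei of batch 2 carried hemoglobin messages and markers of cerebellar granule neurons more often than nuclei of batch 1, and the plates overlapped for lists of astrocytes, microglia, oligodendrocyte precursors and inhibitory neurons. That overlap depended on depth for microglia, which without thinning were at 3.57% and 5.71% of nuclei in batch 1 and 17.9% and 16.4% in batch 2, and for oligodendrocyte precursors, at 17.86% and 10.0% against 17.91% and 28.4%. Shares are given with exact binomial 95% intervals, and the exact permutation test of a single share over 2 plates against 2 cannot go below 0.333.

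The blood list (the alpha globins Hba-a1 and Hba-a2 and the beta globins Hbb-bs and Hbb-bt) was filled in 4 of 22 nuclei of MB17 (18.2%, 5.19 to 40.3) and 0 of 68 of MB18 (0%, 0 to 5.28). It was filled in 32 of 62 of MB14 (51.6%, 38.6 to 64.5) and 30 of 64 of MB16 (46.9%, 34.3 to 59.8). Both plates of batch 2 lay above both plates of batch 1, by 40.2 percentage points in the mean against a pooled plate SD of 9.39. In the non-redundant set MB17 fell to 1 of 14 nuclei (7.14%), and the difference was 47.0 points.

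Hemoglobin was found in nuclei with neuronal markers. Only 2 non-redundant nuclei of batch 2 held under 2 pan-neuronal markers, each with a globin, so nuclei without these markers give no comparison. In the non-redundant set of batch 2, at least 1 globin was found in 40 of 60 nuclei that held at least 2 pan-neuronal markers (66.7%, median depth 54298.5 counts). In batch 1 the same held for 2 of 59 such nuclei (3.39%, median depth 205552 counts). In the non-redundant set of batch 1 globins were found on MB17 only. Over all nuclei, thinned to 5000 counts, at least 1 globin was in 5 of 23 nuclei of MB17 and 0 of 68 of MB18. Of batch 2 nuclei with at least 2 astrocyte markers 17 of 21 had a globin (81.0%), and of those with fewer 25 of 41 (61.0%). Globins were thus found in nuclei with markers of neurons and of astrocytes, and the source of these reads was not tested.

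Cerebellar granule neuron markers (11 of the 12 listed are in the tables) were found as at least 2 in 45.5% of nuclei of MB17 and 52.9% of MB18, against 79.0% of MB14 and 75.0% of MB16. The difference of 27.8 points compared with a pooled plate SD of 4.25, and it was 32.6 points in the non-redundant set. As a share of summed reads, however, the same list took 0.330%, 0.380%, 0.418% and 0.255% of MB17, MB18, MB14 and MB16, and the plates overlapped. The signalling gene Chn2 was the marker found most often, in 50.0%, 61.7%, 89.5% and 79.2% of non-redundant nuclei in that order. Gabra6, the GABA-A receptor subunit that defines granule neurons, was found in 14.3%, 26.7%, 28.9% and 29.2%, with MB17 low and the other plates together. Granule markers also accompanied markers of other types: at least 2 of them were in 18 of the 21 astrocyte-marked nuclei of batch 2 (85.7%) and in 14 of 28 in batch 1 (50.0%). From 60.0% to 75.0% of the nuclei of a plate filled 2 or more of 8 cell type lists, so the shares describe which messages are in the wells rather than numbers of cells of each type.

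The label of cortex was checked against the 12 listed genes of cortical projection neurons. Of these, 9 were found, in 1 to 15 non-redundant nuclei of batch 1 and 2 to 21 of batch 2, with Mef2c, a transcription factor that other cells also use, in 15 and 13 and the kinase gene Camk2a in 14 and 21. The other 3 were the transcription factors Tbr1, Neurod6 and Emx1. They were found in none of the 74 and 62 non-redundant nuclei of batches 1 and 2. Pooled over the plates of a batch, this allows shares of up to 4.05% and 4.84%. Slc17a7, a vesicular glutamate transporter of cortical neurons that granule neurons also make, was in 3 and 12 nuclei. Cbln3, a secreted protein of granule neurons, was in 19 and 22 nuclei. By nuclei with at least 2 markers the cerebellar list stood above the cortical list on every plate: the cortical list reached 22.7% and 30.9% in batch 1 and 35.5% and 31.3% in batch 2, over all nuclei. By share of summed reads the order held on MB17, MB18 and MB14 and turned on MB16, where the cortical list took 0.343% and the cerebellar list 0.255%.

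Pan-neuronal markers were common in both batches, at 86.4% and 76.5% of nuclei in batch 1 and 93.5% and 93.8% in batch 2. The difference was 12.2 points, with a pooled plate SD of 4.95. Striatal spiny neuron markers reached 13.6% and 14.7% in batch 1 and 30.6% and 32.8% in batch 2, and oligodendrocyte markers 45.5% and 41.2% against 58.1% and 50.0%. Inhibitory neuron markers spanned the batches, with 54.5% and 27.9% against 37.1% and 48.4%, and so did astrocyte markers, with 22.7% and 41.2% against 37.1% and 29.7%. Microglia, endothelial and mural, and ependymal and choroid plexus lists were each filled in under 10% of the nuclei of every plate.

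**Figure D3:**
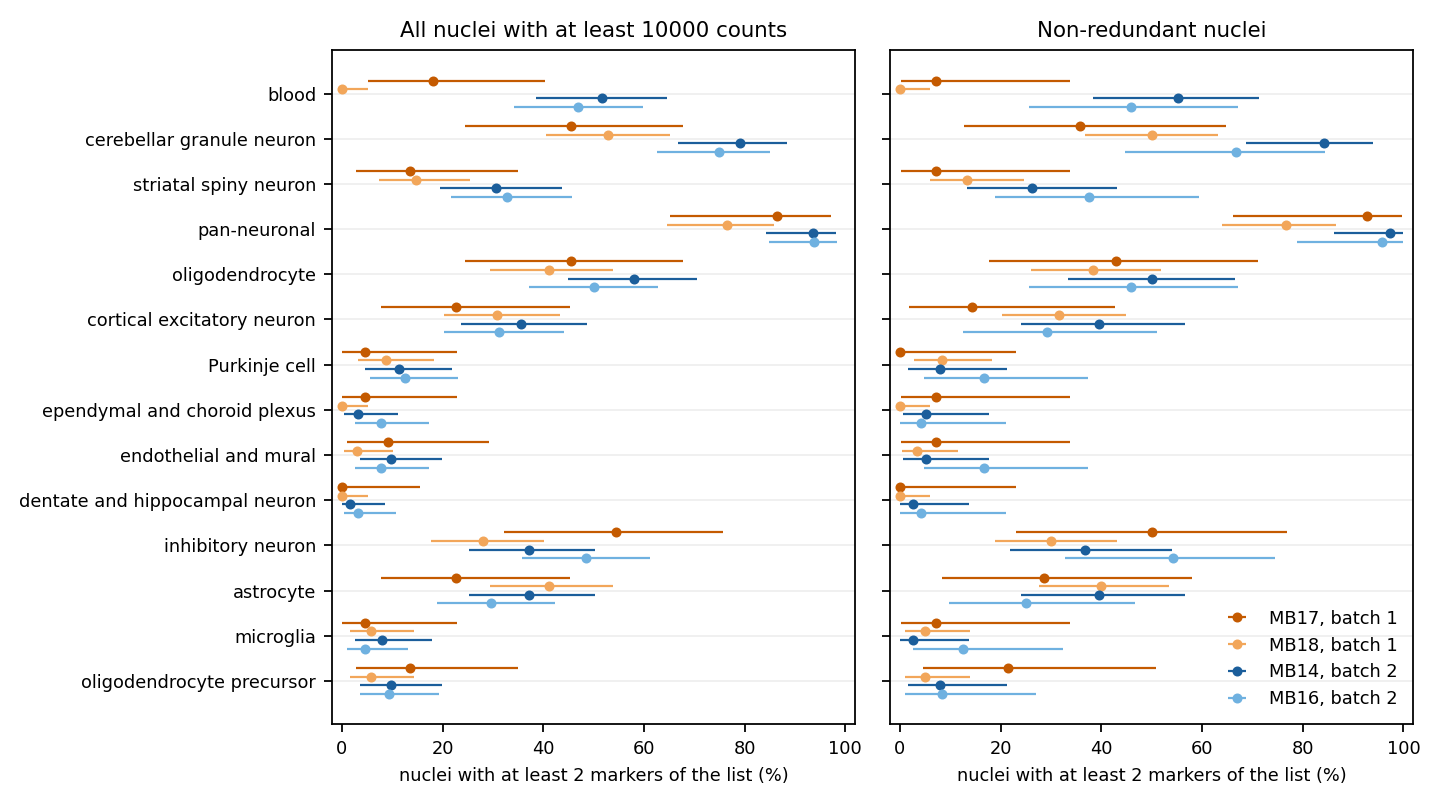
Percent of nuclei with at least 2 markers of each list after thinning to 10000 counts, by plate, with exact binomial 95% intervals. All nuclei are on the left and the non-redundant set on the right, and lists run from the largest excess in batch 2 at the top. Blood and cerebellar granule neuron markers stand higher on both plates of batch 2, while astrocyte and microglia markers overlap.

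The gene profile was first compared by summed reads, with a quasi-likelihood test in edgeR on the totals of the 4 plates. Of 11253 tested genes, 0 passed an adjusted p of 0.05, and 1418 had an unadjusted p under 0.05. The smallest adjusted p was 0.193. Without the filter on low counts, on 17753 genes, edgeR called 93. DESeq2's Wald test on the same genes gave an adjusted p to 12934 of them. It called 1091, of which 389 were higher in batch 1 and 702 in batch 2. The spread between plates was wide (common dispersion 1.32), and single wells carried a large part of the reads of many genes. In the median tested gene, 1 nucleus gave 87.4% of the reads on MB17, 48.6% on MB18, 50.0% on MB14 and 59.2% on MB16.

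Many of the largest differences by reads rested on few wells. Both plates of batch 2 lay above both plates of batch 1 for 32.4% of tested genes, and the reverse held for 12.1%. Among genes with at least 50 CPM (counts scaled to a common library size) in the higher batch and no overlap of plates, the 10 largest in batch 2 were all at 0 counts in batch 1. They had counts in 4 to 26 nuclei (median 11), and 1 nucleus gave 19.3% to 76.0% of the batch's counts (median 57.4%). The 10 largest in batch 1 had counts in 2 to 48 nuclei (median 5), with 43.9% to 92.4% from 1 nucleus (median 84.0%). Cyb561d2, a membrane cytochrome, had 2084 counts on MB14 and 1315 on MB16, at least 1950-fold more per count than the 3 counts that 0 in batch 1 allows, but 92.9% and 94.1% of them came from 1 nucleus per plate. Lyz2, the lysozyme of macrophages, had 1745 and 973 counts, of which 98.1% and 99.9% came from 1 nucleus. In the other direction Cd33, a lectin of myeloid cells, had 239 counts on MB17 and 1208 on MB18 and none in batch 2, all from 1 nucleus on each plate. Rnf26, a ubiquitin ligase of the endoplasmic reticulum, had 803 and 65 counts and none in batch 2, with 99.9% of the first from 1 nucleus. The adjusted p was 0.193 for each of these genes in edgeR.

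The most abundant genes also differed plate by plate. Gm10801, a predicted gene that matches satellite repeat sequence, took 16913 CPM on MB17 and 112476 CPM on MB18, against 1443 and 7716 CPM on MB14 and MB16. It held 10.7% of the counts of the median nucleus of MB18 and 1.04% on MB17. Chl1, a neural cell adhesion molecule, reached 20284 CPM on MB18 and 2874 on MB17, against 537 and 638 CPM in batch 2. Ndrg3 was led by MB17 with 14815 CPM, 96.1% of them from 1 nucleus. In batch 2 the leading genes included Gm42418, which overlaps ribosomal RNA, at 8249 and 5449 CPM against 346 and 5969 CPM in batch 1, and Apoe, the lipid carrier of astrocytes and microglia, at 8141 and 3208 CPM against 165 and 308 CPM in batch 1. Fth1, the ferritin heavy chain, had 4092 and 8535 CPM in batch 2 and 11536 CPM on MB17, and 1 nucleus gave 81.8% of its counts on MB16 and 99.2% on MB17. Eri1, an exonuclease, was among the 5 most abundant genes of both batches through 1 nucleus of MB17 and 1 nucleus of MB16. In these genes the adjusted p of edgeR lay between 0.295 and 0.876.

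Because 1 well could set a plate's total, genes were also compared by the number of non-redundant nuclei with a count after thinning to 10000 counts, a measure chosen after the reads had been examined. In this edgeR fit on 14, 60, 38 and 24 nuclei, 35 of 629 tested genes passed an adjusted p of 0.05: 30 genes were found in more nuclei of batch 2 (4.77% of those tested) and 5 in more nuclei of batch 1 (0.795%). Those higher in batch 2 included genes of ribosomal proteins, cytochrome c oxidase, glycolysis and hemoglobin, and those higher in batch 1 were long genes. With all nuclei, shared profiles kept, 233 of 2045 genes passed, among them 34 of the 35. The common dispersion of this fit was 9.77e-05, against 1.32 by reads. Numbers of nuclei were modelled as counts with no upper limit, although each plate has a fixed number of nuclei. How this moved the p-values was not tested. The filter on low counts needs only 2 plates, so a gene could enter through the batch in which it was found more often. Counts over tested members of a list or of a class of gene length are therefore descriptions. The calls rested on single plates: of the 35, 27 passed without MB17, 1 without MB18 (Hacd1), 3 without MB14 (Hacd1, Sspn and Cox6a1) and 14 without MB16, and without a plate the lone plate of its batch is assumed to vary like the others. Of the 35 genes, 33 were tested without MB18 and 24 without MB14. All 35 kept their direction in every alternative of this fit in which they were tested.

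**Figure D4:**
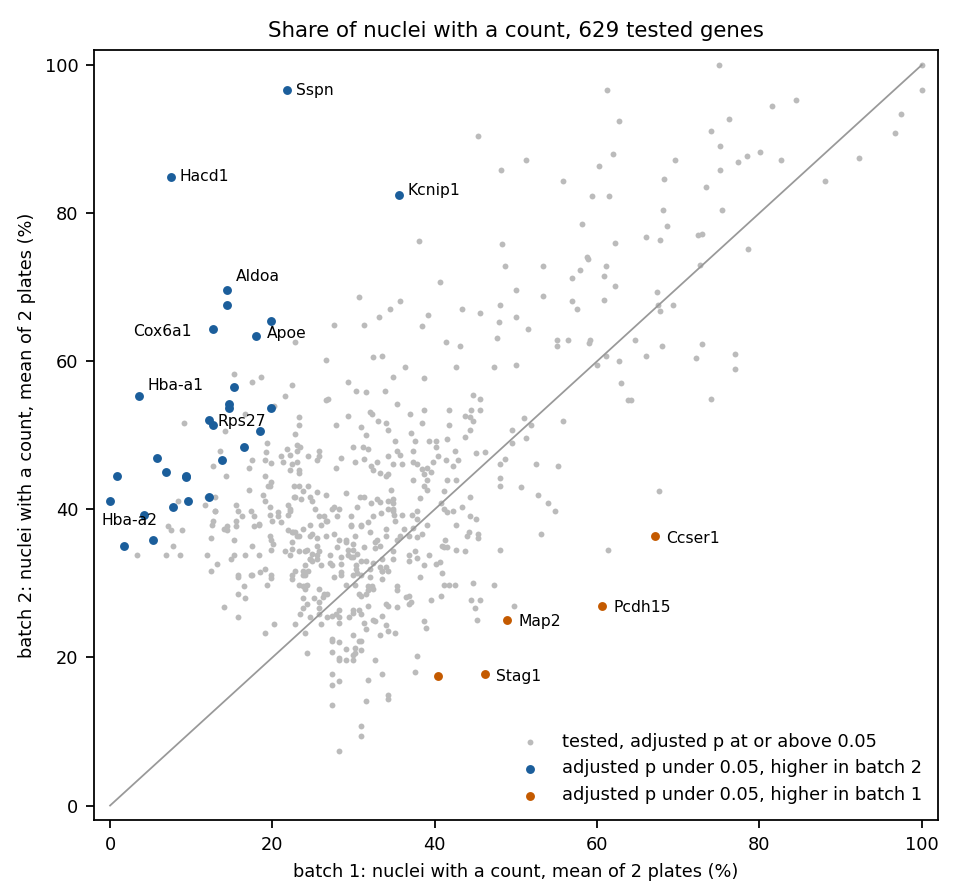
Percent of non-redundant nuclei with a count for each of 629 tested genes, as the mean of the 2 plates of batch 1 (x axis) and of batch 2 (y axis), with the line of equality. Blue points are the 30 genes and orange points the 5 genes with an edgeR adjusted p under 0.05; selected genes are named. Sspn and Hacd1 lie farthest above the line, and Pcdh15, Ccser1, Map2 and Stag1 below it.

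The widest gaps were in a pair of muscle-related genes. Sspn (chr6:145931641-145965223 in GENCODE M21 on GRCm38), which encodes sarcospan of the dystrophin complex, was found in 28.6% of nuclei of MB17 and 15.0% of MB18, against 97.4% of MB14 and 95.8% of MB16. Where it was found the median was 1 count in batch 1 and 6 counts in batch 2. Its log2 fold change, batch 1 minus batch 2, was -2.28 ± 0.32 (SE) with an adjusted p of 0.0081 in edgeR, and -2.04 with an adjusted p of 0.650 by reads. Hacd1 (chr2:13850282-14056135), an enzyme of very long chain fatty acid synthesis, was in 0 of 14 nuclei of MB17, 15.0% of MB18, 94.7% of MB14 and 75.0% of MB16, with a log2 fold change of -2.65 ± 0.39 and an adjusted p of 0.0081 in edgeR. In batch 2 Sspn was in 58 of 60 nuclei with at least 2 pan-neuronal markers, 29 of 30 with oligodendrocyte markers and 19 of 21 with astrocyte markers. These groups share nuclei, and a gene in nearly every nucleus is found in any group. Without MB18 Hacd1 passed and Sspn did not.

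Globins gave the largest log2 fold changes. Hba-a2 was in 0 of 74 nuclei of batch 1 and in 17 of 38 and 9 of 24 nuclei of MB14 and MB16. Pooled over the plates of batch 1, 0 allows a share of up to 4.05%. On the 14 nuclei of MB17 alone it allows up to 21.4%, so the pooled bound rests mostly on MB18. Hba-a1 was in 1 of 14 nuclei of MB17 and 0 of 60 of MB18, and in 60.5% and 50.0% of nuclei of MB14 and MB16. Their adjusted p-values in edgeR were 0.018 and 0.0082. The pair (chr11:32283511-32284465 and chr11:32296489-32297298) is nearly identical in sequence, so the split of reads between them is uncertain. Hbb-bs was in 2 nuclei of batch 1, on MB17 only, and 24 of batch 2, with an edgeR adjusted p of 0.053. Hba-a1 passed in 10 of the 11 alternatives in which it was tested and Hba-a2 in 7 of 9. Neither passed without MB18, neither was tested without MB14, and of the pair only Hba-a1 passed without MB16.

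Messages of the ribosome were found more often in batch 2. Some genes of ribosomal proteins are near-identical copies among which the split of reads is uncertain. By a rule on symbols, Rpl or Rps and a digit, which can include genes of other proteins, the list took 102 genes. Of these, 14 were tested, 6 were called higher in batch 2 (Rpl11, Rpl34, Rpl41 and Rps27 among them) and 0 in batch 1, against 4.77% and 0.795% of all tested genes. Over all 102, tested or not, the mean share of nuclei with a count was 6.65% on MB17 and 8.91% on MB18, against 22.9% on MB14 and 18.8% on MB16. Rps27 was found in 14.3% and 10.0% of nuclei in batch 1 and in 50.0% and 54.2% in batch 2 (log2 fold change -2.06 ± 0.41, edgeR adjusted p 0.018). Rpl41 was found in 14.3% and 15.0% against 50.0% and 58.3% (-1.66 ± 0.36, edgeR adjusted p 0.027). The plates of the batches do not overlap for either gene. Fau and Rplp1, a ubiquitin-like ribosomal fusion protein and a stalk protein outside the list's naming rule, were also called, at log2 fold changes of -2.16 and -1.40. Per nucleus, the median number of the 102 genes with a count was 5 and 9 on MB17 and MB18 and 18 and 17.5 on MB14 and MB16. By summed reads the list took 0.653% and 0.366% of counts in batch 1 and 2.31% and 1.38% in batch 2, with 0 of 96 genes called; the log2 fold changes of reads of Rps27 and Rpl34 were 1.74 and 1.44, opposite in sign to those of nuclei, and did not pass. The 6 calls became 5, 0, 0 and 2 without MB17, MB18, MB14 and MB16, and Rpl34 was tested neither without MB18 nor without MB14.

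Over the 20 nuclear-encoded respiratory chain genes in the tables, the mean share of nuclei with a count was 12.5% on MB17 and 11.8% on MB18, against 30.5% on MB14 and 25.4% on MB16. By summed reads the list took 1.22% and 0.156% of counts in batch 1 and 1.06% and 1.19% in batch 2. By reads the plates overlapped over all nuclei but not in the non-redundant set. Of the 7 genes of the list that could be tested, Cox6a1, a subunit of cytochrome c oxidase, was called, against 4.77% of all tested genes called higher in batch 2. It was found in 7.14% and 18.3% of nuclei in batch 1 and in 57.9% and 70.8% in batch 2, with a log2 fold change of -1.77 ± 0.35 and an edgeR adjusted p of 0.018. Cox8a, another subunit of the oxidase, had a value of -1.18 and an adjusted p of 0.083. Cox5b, another subunit outside the list, was called at -1.49. The glycolytic enzymes Aldoa and Tpi1, which are in none of the lists, were called as well, Aldoa with 7.14% and 21.7% of nuclei in batch 1 and 68.4% and 70.8% in batch 2. None of these genes passed without MB18, Cox6a1 alone passed without MB14, where Tpi1 was not tested, and Aldoa alone without MB16. Of 8 tested mitochondrially encoded transcripts, both plates of batch 2 were higher for 1 and both of batch 1 for 2, against 38.3% and 8.74% of all tested genes, and 0 were called. In this group mt-Cytb was in 78.6%, 68.3%, 92.1% and 75.0% of nuclei of MB17, MB18, MB14 and MB16.

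The genes that follow are named from their values and not as a tested group. Apoe was found in 14.3% and 21.7% of nuclei in batch 1 and in 68.4% and 58.3% in batch 2 (log2 fold change -1.49 ± 0.31, edgeR adjusted p 0.022). In batch 2 it was in 18 of 21 nuclei with at least 2 astrocyte markers and in 22 of 41 with fewer, and in batch 1 in 10 of 28 and 5 of 46. Cst3, the secreted protease inhibitor cystatin C, was in 21.4% and 18.3% against 68.4% and 62.5%, and Ptgds, the prostaglandin D synthase of the meninges and oligodendrocytes, in 7.14% and 23.3% against 63.2% and 50.0%. Psma6, a proteasome subunit, was called at a log2 fold change of -1.74. Cbln1, a synapse organiser secreted by granule neurons, was in 0 of 14 and 7 of 60 nuclei of batch 1 and in 23 of 38 and 8 of 24 of batch 2, at -2.20 ± 0.51 with an edgeR adjusted p of 0.038. Ttr, the thyroxine carrier made by the choroid plexus, was in 28.6%, 0%, 47.4% and 41.7% of nuclei and did not pass (-2.82, edgeR adjusted p 0.082). None of the called genes of this paragraph passed without MB18 or without MB14, where Cbln1 was not tested.

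Genes found in more nuclei of batch 1 were few. Pcdh15, a protocadherin of 1550 kb (chr10:73099342-74649737), was in 42.9% and 78.3% of nuclei of MB17 and MB18 and in 28.9% and 25.0% of MB14 and MB16, with a log2 fold change of 1.53 ± 0.28 and an edgeR adjusted p of 0.018. Stag1, a cohesin subunit, was in 35.7% and 56.7% against 10.5% and 25.0% (1.84 ± 0.39, edgeR adjusted p 0.027). Map2, a microtubule protein of dendrites, was in 42.9% and 55.0% against 21.1% and 29.2% (1.27 ± 0.32, edgeR adjusted p 0.047). Ccser1 and Fut8, a fucosyltransferase, were called at 1.05 and 1.43. Of 12 alternatives, Fut8 passed in 0, Ccser1 and Map2 in 1 each, and Pcdh15 and Stag1 in 7 each, and among nuclei with at least 2 pan-neuronal markers 0 genes were called higher in batch 1. Map2 was the only one of 7 tested pan-neuronal genes called, against 0.795% of all tested genes called higher in batch 1, and for the other 6 both plates of batch 2 lay above both of batch 1, against 38.3% of all tested genes. Snap25, a synaptic vesicle fusion protein, was in 57.1% and 66.7% of nuclei in batch 1 and in 84.2% and 91.7% in batch 2, with an adjusted p of 0.641. Of these 5 genes Stag1 alone passed without MB16, and none passed without MB18 or without MB14.

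In other gene groups 0 or 1 gene was called, and with 0.795% and 4.77% of all tested genes called higher in batch 1 and batch 2, such counts set no group apart. Of 15 tested cadherins and adhesion genes 1 was called (Pcdh15), and Lsamp was in 92.9%, 83.3%, 89.5% and 79.2% of nuclei of MB17, MB18, MB14 and MB16. Of 5 tested genes of the Kv4 potassium channel complex Kcnip1 was called, at 42.9% and 28.3% against 81.6% and 83.3% (of the plates, it passed without MB17 only), while Kcnd2, the channel subunit, was in 78.6%, 71.7%, 94.7% and 83.3%. None of 7 ionotropic glutamate receptors, 2 GABA-A receptors, 14 presynaptic release genes, 7 neuronal RNA-binding regulators, 3 axon guidance genes or 3 chaperones passed. Gria2, an AMPA receptor subunit, was in 42.9% and 56.7% of nuclei in batch 1 and 28.9% and 25.0% in batch 2, with a log2 fold change of 1.13 and an edgeR adjusted p of 0.054. Hspa8, a constitutive chaperone, was in 50.0% and 28.3% against 65.8% and 66.7%, at -0.86 with an adjusted p of 0.156. Malat1, the long noncoding RNA of the nucleus, was in every non-redundant nucleus of all 4 plates. No immediate early gene was found often enough to be tested, and Egr1, the most frequent, was in 0%, 6.67%, 15.8% and 8.33% of nuclei.

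Gene length separated the batches. The 5 genes called higher in batch 1 were 238 to 1550 kb long with a median of 362 kb, and the 30 called higher in batch 2 had a median of 4.09 kb, with a range of 0.496 to 364 kb, against 212 kb over all tested genes. Lengths are from the start to the end of the gene, introns included, and 622 of the 629 tested genes had one. Of 80 tested genes under 10 kb 20 were called higher in batch 2 and 0 in batch 1, and of 239 over 300 kb 1 and 3 were called, against 4.77% and 0.795% of all tested genes. Both plates of batch 2 lay above both of batch 1 for 60 of the 80 short genes and for 54 of the 239 long ones, against 38.3% of all tested genes. The reverse held for 3 of the short and 31 of the long genes, against 8.74% of all tested genes. Short genes found often in batch 2 only could enter the test through that batch, so these counts are descriptions and no test of length.

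The same was measured in single nuclei without any call. The median length of the genes found in a non-redundant nucleus was 84.6 kb on MB17 and 81.2 kb on MB18, against 57.5 kb on MB14 and 63.5 kb on MB16. The plates did not overlap, and the batches differed by 22.4 kb with a pooled plate SD of 3.45 kb. The exact permutation test over plates gave the smallest 2-sided p it can, 0.333. Genes over 100 kb took 47.9% and 49.1% of counts in the median nucleus of MB17 and MB18 and 32.9% and 31.7% on MB14 and MB16. Genes under 10 kb made up 11.1% and 9.60% of the genes found in batch 1 and 17.8% and 15.6% in batch 2. With all nuclei the difference in median length was 20.7 kb, and among nuclei with no shared profile 23.0 kb. Leaving out 1 plate gave 19.4 to 25.4 kb.

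**Figure D5:**
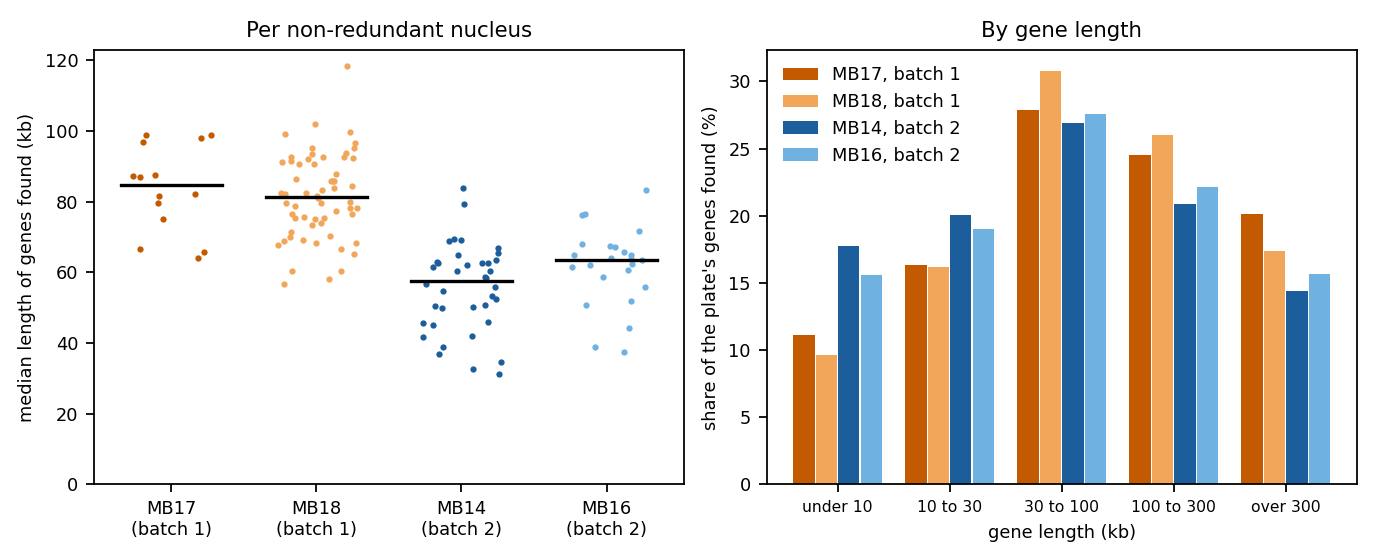
Left, median length of the genes found in each non-redundant nucleus after thinning to 10000 counts, with 1 point per nucleus and a bar at the plate median. Right, percent of all genes found on a plate that fall in each class of gene length. Nuclei of batch 1 sit higher on the left, with plate medians of 84.6 and 81.2 kb against 57.5 and 63.5 kb, and batch 2 has the larger share of genes under 10 kb.

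Between plates, the shares of nuclei per gene were most alike within batch 2. Across the 629 tested genes Spearman's rho was 0.623 for MB14 with MB16 in the non-redundant set and 0.847 with all nuclei, which includes their shared profiles. It was 0.522 for MB17 with MB18, and between batches it ran from 0.257 to 0.376. These values are across genes, which are not independent replicates, and the number of nuclei differs between plates.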

How the data were processed

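SMART-Seq2 read counts of 232 nuclei on 4 plates were used as the authors deposited them: raw counts per mouse gene and nucleus, without molecular identifiers. Columns deposited by the authors beside them hold, for each nucleus, the percent of human and of mouse counts and a mitochondrial fraction (at most 4.91% here). The submitters' processing notes name the builds mm10 and hg19. No aligner or counter is named in the sources used here. Plates, batches and wells come from the annotation. The members and gene lists were chosen with earlier results of these data known.

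Counts were thinned without replacement to 10000 per nucleus. Plate sums were tested by quasi-likelihood in edgeR 4.0.16 (R 4.3.3), scaled by TMM, filtered with filterByExpr and adjusted by Benjamini-Hochberg, with no covariates, after the code was tested on simulated data. DESeq2 1.42.0 was an alternative. The fit on nuclei with a count, the shared profiles (r above 0.6 over genes found in at least 5 nuclei) and the non-redundant set were added after the data had been seen. Genes were named by rule: since no gene was called by reads, the 10 largest each way with at least 50 CPM and no overlap of plates, of which some are described; the 5 most abundant per batch; and called or leading members of the lists. Genes called on nuclei with a count were chosen after their values were seen. Gene lengths are from GENCODE M21, by symbol, which held 95.7% of 21608 genes. Other steps used scipy 1.17.1, pandas 2.3.3 and numpy 2.4.6 under Python 3.11, and matplotlib 3.10.9. No cell clusters were made and no doublets were called, since each well is labelled as 1 nucleus. Alternatives covered scaling, tool, filter, depth, markers required, shared profiles and each plate left out. Some genes of the lists and of those called are not reported here.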

Additional observations from a re-analysis of the deposited data

How the results depend on the processing

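Depth and the number of plates limit these results: with 2 plates a batch no single value can pass a permutation test, low genes rest on 1 well, and 14 nuclei of MB17 carry much of the batch 1 mean. No paired analysis was possible because the labels give the plates no replicate numbers. By summed reads the 0 calls became 93 without the filter on low counts and 1091 with DESeq2's Wald test, which also ran without that filter, so tool and filter are not separated there, and stayed 0 with DESeq2 size factors in edgeR, after thinning, without the deepest nuclei, in the non-redundant and unshared sets, in neuronal nuclei and with each plate left out (0 to 0). On nuclei with a count the 35 calls became 18 with DESeq2 size factors, 233 with all nuclei, 23 at 5000 counts, 37 at 20000 counts, 64 without thinning, 13 and 34 at r above 0.4 and 0.8, 11 in nuclei with at least 2 pan-neuronal markers, and 1 to 36 with a plate left out. The cause was not tested. Calls among ribosomal protein genes, 6 in the report, became 3 with size factors, 26 with all nuclei, 3 at 5000 counts, 11 without thinning, 1 at r above 0.4, 2 in neuronal nuclei and 0 to 5 with a plate left out. The 35 genes kept their direction in the alternatives of this fit in which they were tested.

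Genes per nucleus were lower in batch 1 at 5000 and 20000 counts, with differences of -100 and -257, and at 20000 the plates no longer overlapped. Without thinning the difference was -173.5, and it turned to 21 when a gene also needed 5 counts. It turned to 33.5 without MB17. The granule marker difference was -16.9 points with at least 1 marker, -34.1 with at least 3, -33.9 without thinning and -32.6 in the non-redundant set, but 0.018 points as a share of summed counts. The blood difference was -53.1, -24.0 and -53.3 points with at least 1 marker, at least 3 and no thinning, and -0.333 points as a share of summed counts. The pan-neuronal difference was -5.79 points with at least 1 marker and -0.069 points as a share of summed counts. The cause of these moves was not tested. Of the other 11 lists, the oligodendrocyte, cortical excitatory neuron, and ependymal and choroid plexus lists kept the sign of their difference in all 11 alternatives. The sign changed in 7 for inhibitory neurons, 6 for oligodendrocyte precursors, 4 for astrocytes, and 1 each for Purkinje cells, dentate and hippocampal neurons, striatal spiny neurons, microglia, and endothelial and mural cells. As a share of summed counts the striatal difference was 0.029 points and the plates overlapped.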
